A study of Mus musculus with 3 samples.

Results

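The levels of Foxp3 and of 8 other genes that mark regulatory T cells were set side by side in 3 RNA-sequencing (RNAseq) libraries. The genes were Foxp3, Il2ra, Ctla4, Ikzf2, Ikzf4, Tnfrsf18, Itgae, Gpr83 and Lrrc32, named by their symbols, and they are 9 of the 36835 genes with a level. The level of a gene was the sum over its annotated transcripts, and for each transcript the first row of the table with a value in all 3 columns was used. Levels are in FPKM, a fragment count divided by transcript length and library size, which corrects for transcript length, so that different genes can be compared within a column.

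The study asked whether macrophages associated with a kidney tumor contain Foxp3 mRNA. Renca cells, a mouse renal tumor cell line, were injected into the kidney of BALB/C mice (the study's legend for the RNAseq names the derived line Renca Ch+ L+), and cells were sorted by antibodies to CD45.2, TCRbeta, CD4, F4/80 and CD11b. The libraries were labelled M1 for type-1 macrophages, M2 for type-2 macrophages and CD4 for CD4 T lymphocytes, with 1 library for each and no untreated or tumor-free group. The labels describe a pool of 30 tumors and 4 spleens, give both day 14 and day 16 for the harvest, and name the spleen in one place and the tumor in another as the source of the CD4 cells. With 1 pooled library per subset no difference has a replicate check and no test was made. The depth was estimated at 62200000 fragments for the library labelled M1, 59700000 for M2 and 71500000 for CD4.

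Regulatory T cells are CD4 T cells that restrain other immune cells, and Foxp3 is the transcription factor that maintains their identity. Il2ra (CD25) is the alpha chain of the receptor through which they take up interleukin 2, and Ctla4 is an inhibitory receptor that competes with CD28 for CD80 and CD86 on antigen-presenting cells. Several of these genes are not restricted to regulatory T cells. Activated T cells also use Il2ra, Ctla4 and Tnfrsf18, and Itgae is known from T cells and dendritic cells of epithelial tissue.

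The levels of cell type markers go against the labels M2 and CD4. All 13 T-cell markers were highest in the library labelled M2, with summed levels of 1657 FPKM there, 18.7 in that labelled CD4 and 6.66 in that labelled M1. Cd3e, a chain of the CD3 complex, was at 126 FPKM in M2, 0.141 in CD4 and 0.131 in M1. All 12 macrophage markers were lowest in M2, with summed levels of 342 FPKM there, 6957 in CD4 and 2697 in M1. With all rows the sums were 12697 FPKM in M2 for the T-cell markers and 12454 in CD4 for the macrophage markers, and both counts held. Most of the first sum was Cd5, at 81.3 FPKM in its used rows and 11066.5 over all rows. Much of the second was C1qb, which went from 1481 to 6644 FPKM in CD4. Each library is therefore called by its label, and every direction below rests on the labels.

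The deposited levels are listed separately for each transcript of a gene. For 3 of the genes, sequences are shown over places where transcripts differ by an exon or by retained bases. Each is read from the NCBIM37 genome (mm9) in the direction of transcription, and all coordinates given are of this build. At the 5 splice junctions the last 15 bases of the upstream exon are in lower case and the first 15 of the downstream exon in capitals. In Ctla4-001, exon 2 ends at base 60969614 of chromosome 1 and exon 3 starts at 60970063. Exon 3 has 110 bases and encodes the transmembrane part of the receptor. Ctla4-002 lacks it and joins base 60969614 to base 60971457. In Gpr83-001, base 14665364 of chromosome 9 is joined to base 14669216, while Gpr83-002 lacks the 126 bases of that exon and joins it to base 14671293. In Tnfrsf18-001, base 155402532 of chromosome 4 is joined to base 155402604. Tnfrsf18-004 keeps the 71 bases between them, and for it the run from 155402518 to 155402547 is shown with the retained bases in capitals. All 5 junctions lie within coding sequence.
Ctla4-001, exon 2 to exon 3: agatttatgtcattgATCCAGAACCATGCC
Ctla4-002, exon 2 to its next exon: agatttatgtcattgCTAAAGAAAAGAAGT
Gpr83-001, exon 1 to exon 2: acgcccttcactttgGTCCGCTTTGTGAAC
Gpr83-002, exon 1 to its next exon: acgcccttcactttgGTCATCATGCATCCA
Tnfrsf18-001, exon 4 to exon 5: acatgtgtcctcgagAGACCCAGCCATTCG
Tnfrsf18-004, retained bases: acatgtgtcctcgagGTCAGTTGTGTCCCA

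All 9 genes had their highest level in the library labelled M2, where Foxp3 was first at 24.9 FPKM and Lrrc32 last at 1.52. Among all genes above 0 in at least 1 column, 46.4% were highest in M2. In the libraries labelled M1 and CD4 none of the 9 genes reached 1 FPKM. The highest of these 18 values in the used rows was that of Il2ra in M1, at 0.444 FPKM. Foxp3 was listed at 0 in both.

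**Figure D1:**
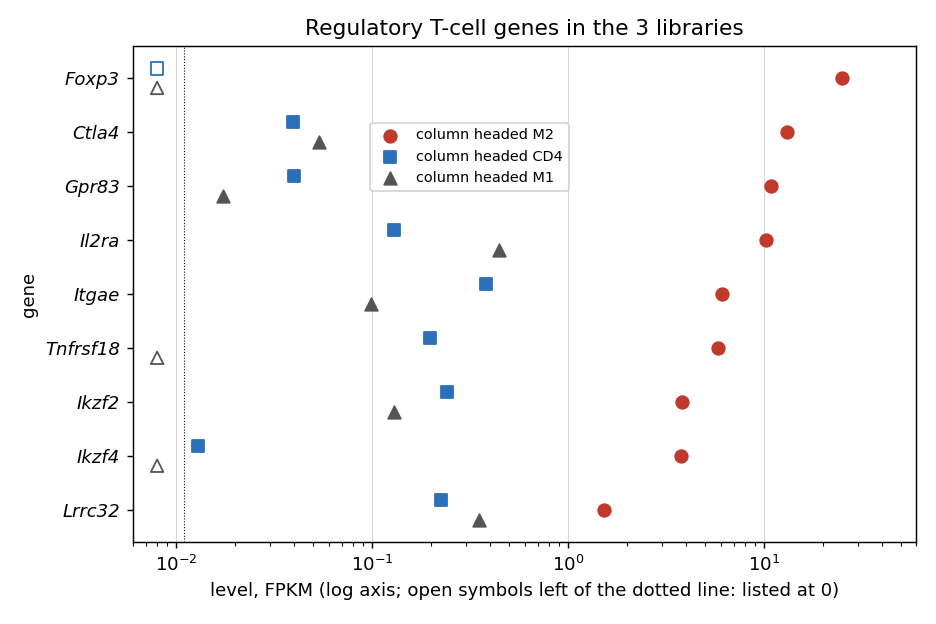
Level of each of the 9 genes in FPKM on a log axis (horizontal) by gene (vertical), with 1 point per library: circles for the library labelled M2, squares for CD4 and triangles for M1. Open symbols left of the dotted line are values listed at 0, and every M2 point, from 1.52 to 24.9 FPKM, lies to the right of the M1 and CD4 points of its gene.

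Differences between libraries were described on the log2(FPKM + 1) scale, which understates the change of low genes, and a difference of at least 1 was taken as past the fold. Genes had to reach 1 FPKM in 1 of the 2 libraries compared, and all 9 passed this through their level in M2 alone. Against the library labelled CD4, all 9 were higher in M2 past the fold, where 17.3% of 12438 genes were higher and 15.3% lower. Their median log2 difference was 2.51, beside 0.12 over all genes. Against the library labelled M1, 8 of 9 were higher in M2 past the fold, where 17.0% of 12443 genes were higher and 14.5% lower, and the median was 2.77, beside 0.10. The exception was Lrrc32 at 0.90, close below the limit, while its 1.04 against CD4 was close above it. Between CD4 and M1, where 6.98% of 11587 genes were higher in CD4 and 7.24% lower, none of the 9 genes reached 1 FPKM and none was compared. Both comparisons of M2 use the same M2 library, and Foxp3 is 1 of the 9 genes.

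**Figure D2:**
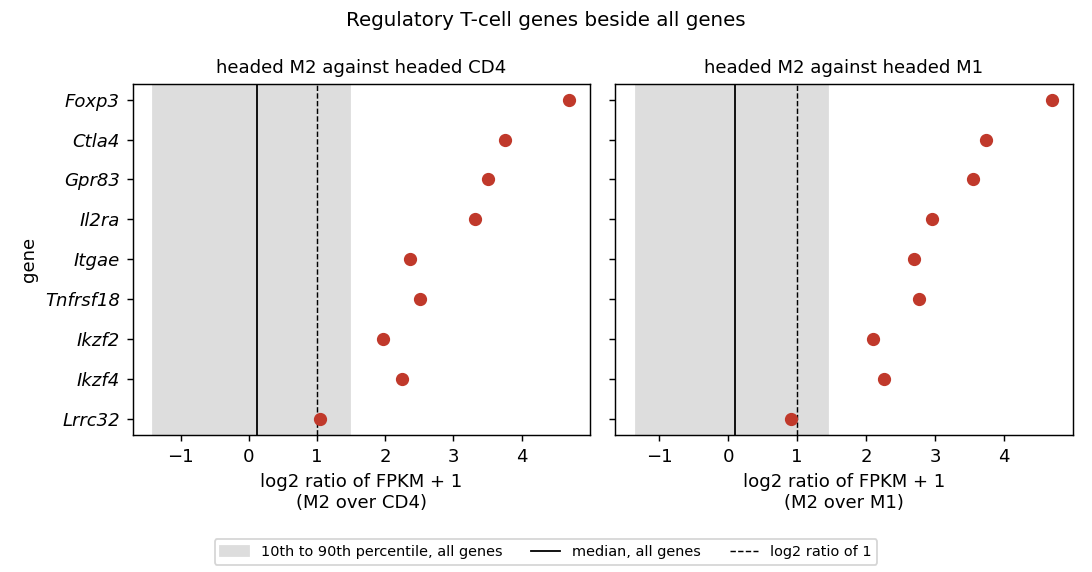
Log2 ratio of FPKM + 1 (horizontal) of each of the 9 genes (vertical), for M2 over CD4 on the left and M2 over M1 on the right, with 1 library per label. The grey band spans the 10th to 90th percentile of all genes compared, the solid line is their median and the dashed line a log2 ratio of 1, and Lrrc32 at 1.04 and 0.90 is the gene inside both bands.

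Foxp3 (chrX:7156802-7172369, forward strand) was listed at 0 FPKM in M1, 24.9 in M2 and 0 in CD4. In M2 this was above 87.3% of the genes with a level above 0. The whole level stood in the row of the transcript Foxp3-002, for which about 5554 fragments were estimated, and the rows of its other 3 annotated transcripts were at 0. For the shortest of them, Foxp3-201, 3 fragments would have given 0.0137 FPKM in M1 and 0.0119 in CD4, although a listed 0 can also be a failed estimate. Of 3953 exon bases, 857 overlap exons of other genes, and the kit is not stated to keep strand. Of these genes Ccdc22, on the reverse strand, was at 16.7 FPKM in M1, 12.3 in M2 and 19.5 in CD4. Ppp1r3f, also on the reverse strand, was at 0 in its used rows and over all rows at 0 in M1, 1.23 in M2 and 0.371 in CD4. The part of these overlaps in the level of Foxp3 was not tested.

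Ikzf2 (Helios) and Ikzf4 (Eos) are zinc finger factors of the Ikaros family, of which Eos is known as a partner of Foxp3 in gene repression. Ikzf2 (chr1:69577788-69732534, reverse strand) was at 0.130 FPKM in M1, 3.83 in M2 and 0.240 in CD4. Ikzf4 (chr10:128067899-128083047, reverse strand) was at 0 in the used rows of M1 and at 3.79 FPKM in M2 and 0.0130 in CD4. In the used rows the levels in M2 were thus close to each other, at 0.154 and 0.152 times that of Foxp3, but not over all rows. The level of Ikzf2 in M2 was 15.9 times that in CD4 and 29.4 times that in M1, and the log2 differences were 1.96 and 2.096. That of Ikzf4 was 293 times the level in CD4, which rested on an estimated 5 fragments, and its log2 differences were 2.24 against CD4 and 2.26 against M1. Of the other family members, 2 known from lymphocytes were also higher in M2 past the fold, although Ikzf1 against M1, at 1.02, was at 0.98 when libraries were scaled by the median ratio. Ikzf1 (Ikaros) was at 33.5 FPKM in M1, 68.7 in M2 and 23.6 in CD4, and Ikzf3 (Aiolos) at 0.0834, 14.5 and 0.0503. Ikzf5 was at 4.73, 6.03 and 4.83 FPKM, not past the fold in either comparison.

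The 2 Ikaros genes differed in how their rows were arranged. Ikzf2 had 1 annotated transcript with 5 rows, of which the second with 3 values was at 0.181 FPKM in M1, 6.71 in M2 and 0 in CD4. With all rows summed Ikzf2 was at 0.311, 11.9 and 0.984 FPKM, or 0.480 times Foxp3 in M2, while Ikzf4 stayed at 3.79 in M2. A further row of Ikzf4-003 with a value in M1 alone gave Ikzf4 0.171 FPKM in M1, above CD4, and the level in M2 was 22.2 times that. The order of M1 and CD4 for Ikzf2 was not stable. CD4 minus M1 on the log2 scale was 0.13 with the first row, 0.60 with all rows and -0.24 with the row of the highest total.

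Il2ra (chr2:11564419-11614818, forward strand) was at 0.444 FPKM in M1, 10.2 in M2 and 0.129 in CD4. The level in M2 was 79.3 times that in CD4 and 23.0 times that in M1, with log2 differences of 3.31 and 2.96. In the used rows it was the gene with the highest level outside M2. Over all rows Ikzf2 and Tnfrsf18 in CD4, Itgae in M1 and CD4, and Lrrc32 in M1 were higher. All of its used level was in Il2ra-001, and the level in M2 was 0.411 times that of Foxp3.

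The other subunits of the interleukin 2 receptor were also highest in M2. Il2rb, the beta chain, was at 0.177 FPKM in M1, 45.9 in M2 and 0.238 in CD4. Il2rg, the gamma chain shared with other cytokine receptors, was at 55.8 FPKM in M1, 169 in M2 and 41.9 in CD4. The gamma chain was therefore well above 1 FPKM in all 3 libraries, the alpha and beta chains in M2 alone. Of the 11 genes of the receptor pathway 10 could be compared. Against CD4, 8 were higher in M2 past the fold and 0 lower, and against M1 7 and 0, with median log2 differences of 1.69 and 1.30. Bcl2, a survival gene, was at 2.59 FPKM in M1, 30.7 in M2 and 2.03 in CD4, and the signal transducer Stat5b at 12.4, 32.8 and 14.1, with a log2 difference to CD4 of 1.16, or 0.93 with all rows. Cish, a feedback inhibitor, was at 12.4 FPKM in M1 and 11.8 in M2 and at 2.25 in CD4, so that it was past the fold against CD4 alone. The gene of the cytokine itself, Il2, was at 0.692 FPKM in M2 and at 0.0640 or less in the others, and was the gene not compared.

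Ctla4 (chr1:60943844-60972676, forward strand) was at 0.0538 FPKM in M1, 13.1 in M2 and 0.0393 in CD4. Of the genes other than Foxp3 it had the highest level in M2, at 0.525 times Foxp3. The level in M2 was 333 times that in CD4 and 243 times that in M1, but each of the lower values rested on an estimated 5 fragments. The log2 differences were 3.76 and 3.74. The row of Ctla4-001, which has the junction into exon 3 shown above, held the whole 13.1 FPKM in M2. Ctla4-002, which lacks exon 3, was listed at 0 in M2 and CD4 and at 0.0198 FPKM in M1. A further 4 rows had a value in M2 alone, at 4.55 and 5.28 FPKM under Ctla4-003 and lower under Ctla4-004, both noncoding. With these rows Ctla4 was at 25.0 FPKM in M2, level with Foxp3 at 24.9.

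On chromosome 1 Ctla4 lies between Cd28 and Icos, which encode the costimulatory receptors of its family, with 113640 bases to the first and 62094 to the second. Cd28 was at 0.178 FPKM in M1, 47.8 in M2 and 0.809 in CD4. Icos had no row with a value in all 3 columns and no level by the rule. Its rows held 0.218 FPKM in M1, 17.7 in M2, and 0.544 and 0.286 in CD4. The ligands of Ctla4 and Cd28 were lower in M2 than in M1. Cd80 was at 29.5 FPKM in M1, 2.25 in M2 and 3.22 in CD4, and Cd86 at 25.2, 3.52 and 29.9. Cd80 depended strongly on the rows, since all of them gave 58.3 FPKM in M1, 19.7 in M2 and 53.5 in CD4 and a log2 difference of M2 to CD4 of -1.40 in place of -0.38. The receptors were highest in M2 and the ligands in M1 or CD4 under either choice.

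Tnfrsf18 (GITR, chr4:155400273-155403004, forward strand) is a costimulatory receptor of the tumor necrosis factor receptor family. It was listed at 0 FPKM in M1 and was at 5.81 in M2 and 0.198 in CD4. The level in M2 was 0.234 times that of Foxp3 and 29.4 times that in CD4, and the log2 differences were 2.51 against CD4 and 2.77 against M1. The used values stood in the rows of different transcripts, whose annotated sequences are given above. Tnfrsf18-001 held the 5.81 FPKM in M2 and Tnfrsf18-004, with the retained bases, the 0.198 in CD4, where about 15 fragments were estimated. Further rows of Tnfrsf18-001 with a value in CD4 alone were at 0.353 and 0.309 FPKM and brought CD4 to 0.860, with a log2 difference of 1.87 to M2. Of 1524 exon bases, 414 overlap exons of Gm16008 on the other strand, whose used rows were at 0 and which over all rows was at 0.256 FPKM in M1, 0.348 in M2 and 1.15 in CD4.

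The gene of another receptor of the family, Tnfrsf4 (OX40), lies 9551 bases from Tnfrsf18 and was at 0.633 FPKM in M1, 19.9 in M2 and 0.423 in CD4. Tnfsf18, the ligand of Tnfrsf18, was at 0.236 FPKM in M1, 0.155 in M2 and 2.37 in CD4. The ligand was thus above 1 FPKM in CD4 alone, and the receptor in M2 alone.

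Gpr83 (chr9:14664654-14675233, forward strand), a G protein-coupled receptor, was at 0.0173 FPKM in M1, 10.9 in M2 and 0.0398 in CD4. It stood second to Ctla4 of the genes beside Foxp3, at 0.437 times its level in M2. The level in M2 was 273 times that in CD4, which rested on 9 estimated fragments. The ratio to M1 was 627 with a 95% counting interval of 214 to 3044, since an estimated 3 fragments lay behind the value in M1. The log2 differences were 3.51 and 3.54. Gpr83 was the gene with the most transcripts above 0 in M2. Gpr83-001 was at 5.17 FPKM, Gpr83-002, which lacks the second exon as shown above, at 4.04, and the retained-intron transcript Gpr83-003 at 1.66. No other used value of Gpr83, in any transcript and library, exceeded 0.0275 FPKM. With 2 rows found in M2 alone the level there was 15.7 FPKM.

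Itgae (CD103, chr11:72904085-72960948, forward strand) is the integrin alpha chain that pairs with Itgb7 and binds E-cadherin (Cdh1). It was at 0.0988 FPKM in M1, 6.08 in M2 and 0.381 in CD4. The level in M2 was 16.0 times that in CD4 and 61.6 times that in M1, with log2 differences of 2.36 and 2.69, and 0.245 times that of Foxp3. Itgae-001 was at 0 FPKM in M1, 5.23 in M2 and 0.381 in CD4, and Itgae-002 at 0.0988, 0.857 and 0, so that the low values of M1 and CD4 came from different transcripts. Another 3 rows with a value in M1 alone and 1 in CD4 alone were not used. With them Itgae was at 0.774 FPKM in M1 and 0.605 in CD4, the order of these libraries was turned, and the log2 difference of M2 to M1 was 1.997.

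The partner chain Itgb7 was at 14.8 FPKM in M1, 154 in M2 and 0.730 in CD4. Unlike Itgae, it was above 1 FPKM in M1. Cdh1 was at 48.2 FPKM in M1, 6.69 in M2 and 3.84 in CD4 and thus highest in M1.

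Lrrc32 (GARP, chr7:105642732-105650341, forward strand) holds latent TGF-beta on the cell surface. It was at 0.350 FPKM in M1, 1.52 in M2 and 0.224 in CD4. The level in M2 was 6.81 times that in CD4 and 4.36 times that in M1, the lowest of the ratios formed for the 9 genes, and 0.0613 times that of Foxp3. In the used rows Lrrc32 had the largest share of its M2 level elsewhere, with 22.9% in M1 and 14.7% in CD4. Over all rows its share in CD4 was 10.7%, under the 14.8% of Tnfrsf18. With all rows its log2 difference of M2 to M1 was 1.06 and past the fold. Tgfb1, the cytokine it holds, was at 94.9 FPKM in M1, 35.1 in M2 and 82.0 in CD4. Itgb8, an integrin chain that helps to release the cytokine, was at 0.674 FPKM in M2 and lower in both others.

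Beside Foxp3 in M2 the order of levels was Ctla4 at 0.525 times Foxp3, Gpr83 at 0.437, Il2ra at 0.411, Itgae at 0.245, Tnfrsf18 at 0.234, Ikzf2 at 0.154, Ikzf4 at 0.152 and Lrrc32 at 0.0613. No such multiple can be formed in M1 or CD4, where Foxp3 was at 0. With no replicate, no neighbours in this order can be said to differ. The order depended on the rows. With all rows summed, the multiples were 1.01 for Ctla4, 0.654 for Il2ra, 0.632 for Gpr83 and 0.480 for Ikzf2, so that Ctla4 passed Foxp3, Il2ra passed Gpr83, and Ikzf2 passed Itgae and Tnfrsf18. Of the 9 genes, 7 had 1 used transcript row above 0 in M2. Set beside Cd4, which was at 166 FPKM in M2, Foxp3 reached 14.96% of its level, Ctla4 7.86%, Gpr83 6.54%, Il2ra 6.14% and Lrrc32 0.917%. With all rows Ctla4 reached 15.04%, Il2ra 9.79%, Gpr83 9.45%, Ikzf2 7.18% and Lrrc32 1.26%, while Foxp3 stayed at 14.96%. In a bulk library a small number of cells with a gene cannot be told apart from little RNA per cell.

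**Figure D3:**
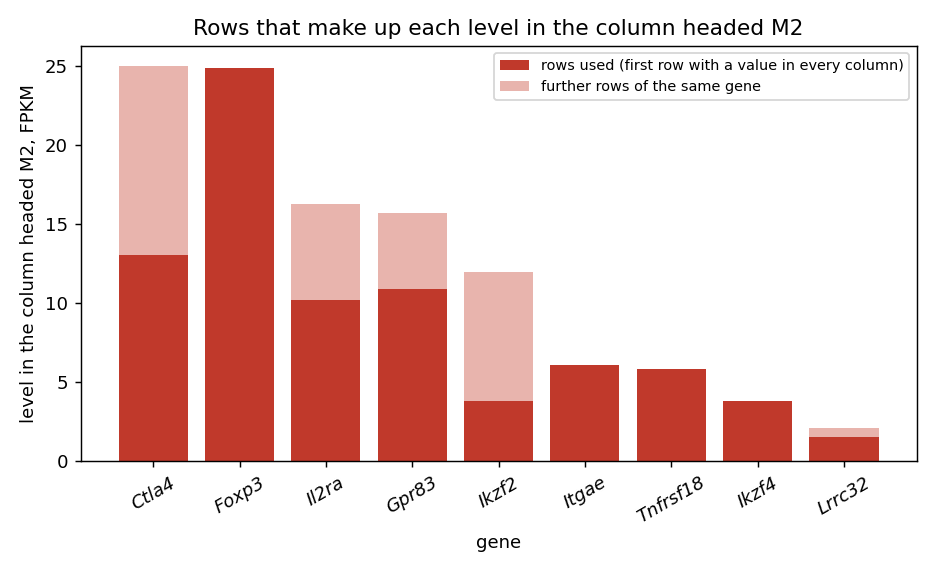
Level in FPKM (vertical, from 0) of each of the 9 genes (horizontal) in the library labelled M2, with the rows used in dark red and the further rows of the same gene stacked in light red. The further rows bring Ctla4 from 13.1 to 25.0 and Ikzf2 from 3.83 to 11.9, while Foxp3, Itgae, Tnfrsf18 and Ikzf4 have none in this library.

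The genes most like Foxp3 over the 3 libraries were found by the Euclidean distance of log2(FPKM + 1), which weighs the size of the level as well as its pattern. Of 22143 protein-coding genes the nearest was Cbx7, listed at 0 in M1 and CD4 and at 25.4 FPKM in M2, with a distance of 0.0292. It was followed by Sdc4 at 0.0410, Dapl1 at 0.0632, Sfi1 at 0.0840 and Ngp at 0.09999, which were at 24.1 to 26.6 FPKM in M2 and at 0.0393 or less elsewhere. None of the 8 other genes was among these 5. Ctla4 was at rank 74, Gpr83 at 104, Il2ra at 134 and Lrrc32, the farthest, at 1340. These places depended on the choice of rows. With all rows Ctla4 was at rank 5 with a distance of 0.0941, Gpr83 at 45 and Il2ra at 59. Sdc4 and Dapl1 were then at ranks 2 and 3 and Ngp at 6, while Cbx7, at 32.4 FPKM in M2, was at 19 and Sfi1, at 3.89 FPKM in M1 and 3.48 in CD4, at 942.

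Other genes known from regulatory T cells were divided. Of 18 surface and effector genes 17 had a level. Against CD4, 9 were higher in M2 past the fold, 5 lower and 3 neither, with a median log2 difference of 1.09, and against M1 8, 4 and 5, with a median of 0.89. Folr4, a surface marker of these cells, was at 0.106 FPKM in M1, 53.8 in M2 and 0.124 in CD4, above Foxp3 in M2. The inhibitory receptor Tigit was at 0.0602 FPKM in M1, 10.3 in M2 and 0 in CD4, and the chemokine receptor Ccr4 at 0.0324, 7.67 and 0.00609. These 3 genes had the pattern of the 9 genes above.

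The 5 surface and effector genes that were lower in M2 than in CD4 past the fold are also known from myeloid cells. Nrp1, a coreceptor for semaphorins and growth factors, was at 9.90 FPKM in M1, 7.25 in M2 and 47.4 in CD4. Entpd1 (CD39), which degrades extracellular ATP, was at 13.6, 4.63 and 18.5 FPKM, and Fgl2, a secreted inhibitor, at 29.1, 8.49 and 39.1. Ebi3, a subunit of interleukin 35 and interleukin 27, was at 9.52, 2.40 and 9.44 FPKM, and the tumor necrosis factor receptor Tnfrsf1b at 65.6, 24.1 and 62.4. Of them, 4 were also lower than in M1 past the fold, and Nrp1 was not. Il10, a suppressive cytokine, was at 0.0870 FPKM in M1, 1.02 in M2 and 0.987 in CD4, and thus did not separate M2 from CD4.

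Of 19 transcription factors that work with Foxp3 or in regulatory T cells, 9 were higher in M2 past the fold, 2 lower and 8 neither against CD4, with a median log2 difference of 0.85. The counts against M1 were also 9, 2 and 8, with a median of 0.96. The genes with the highest levels in M2 were Tcf7 at 250 FPKM and Lef1 at 95.0, a pair of factors of naive T cells, and the genome organiser Satb1 at 69.3. In M1 and CD4 these were at 1.06 FPKM or less. Gata3 was at 0.807 FPKM in M1, 16.0 in M2 and 1.38 in CD4. Runx1 and Cbfb, subunits of a complex that binds Foxp3, were at 14.7 and 50.0 FPKM in M2 and in the other libraries at 15.9 to 68.7, neither past the fold. Runx3 was lower in M2 at 3.59 FPKM, with 23.4 in M1 and 16.5 in CD4. Foxp1, another forkhead factor, was at 22.8 FPKM in M2 and at 0 in the used rows of M1 and CD4, with 0.296 in CD4 over all rows.

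A list of 8 genes linked to the receptors described above included Cd28, which competes with Ctla4 for ligands and is not its binding partner. Of the 8, 7 could be compared with CD4, where 2 were higher in M2 past the fold and 3 lower. With M1, 6 could be compared, where 2 were higher and 4 lower. The higher ones were Cd28 and Itgb7 in both. The median log2 differences were -0.38, which is the value of Cd80, and -1.97. With all rows 4 were lower than in CD4, and the medians were -1.20 and -1.47.

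**Figure D4:**
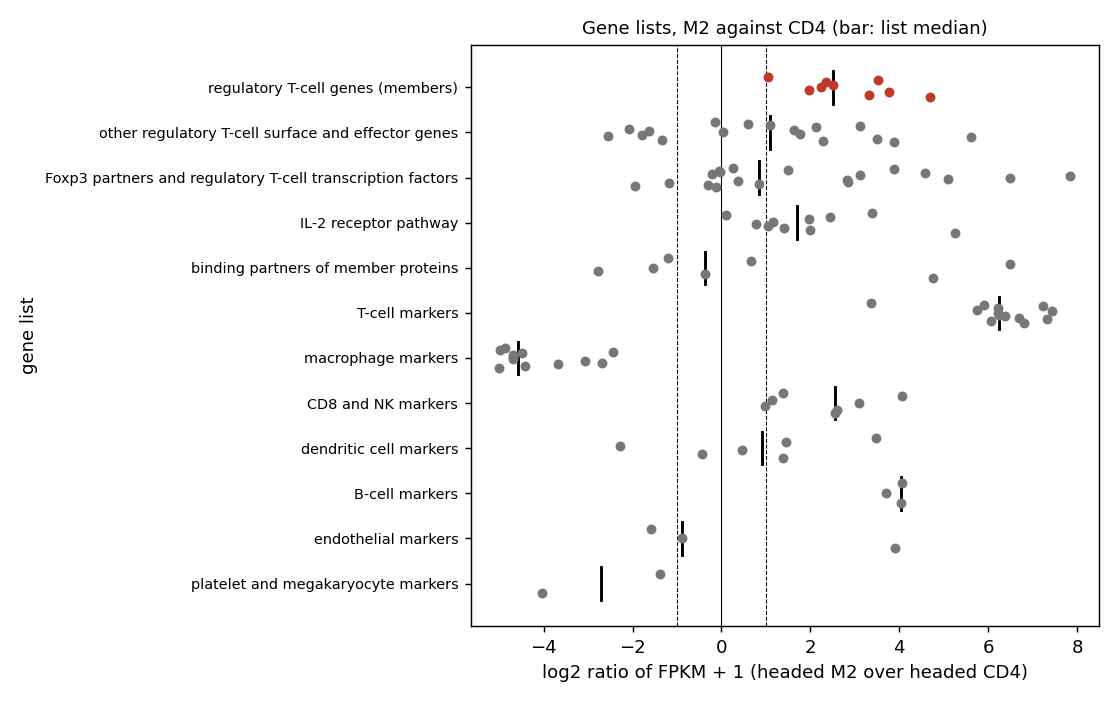
Log2 ratio of FPKM + 1, M2 over CD4 (horizontal), with 1 point per gene for each gene list (vertical), the 9 regulatory T-cell genes in red and the list medians as bars. Dashed lines mark log2 ratios of -1 and 1, and the 9 genes lie between 1.04 and 4.69, under the median of 6.24 of the T-cell markers and above all macrophage markers, whose median is -4.59.

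Markers of other cells also differed between the libraries, and their part in the levels of the 9 genes was not tested. Against CD4, 13 of 13 T-cell markers were higher in M2 past the fold and 12 of 12 macrophage markers lower, and the same held against M1. Cd4 was the T-cell marker with the highest level in CD4, at 15.2 FPKM. The 9 markers of CD8 T and NK cells summed to 43.2 FPKM in M2, 1.404 in CD4 and 6.54 in M1, and 6 of 7 compared were higher in M2 than in CD4. Over all rows the sum in M2 was 54.4 FPKM. The used rows of Prf1 were at 0 in M2, and all its rows gave 7.04 FPKM there. The 5 B-cell markers summed to 47.0 FPKM in M2 and to 0.492 or less elsewhere, with 3 of 3 compared higher in M2 than in CD4. Cd79b was listed at 0 in M2 in all its rows, while Pax5 was at 0 in the used rows and at 6.49 FPKM over all rows. The 9 dendritic cell markers summed to 27.4 FPKM in M2, 34.4 in CD4 and 169 in M1, with 3 of 6 compared higher and 1 lower in M2 than in CD4. Most of the sums in CD4 and M1 was Itgax, at 29.5 and 124 FPKM. Over all rows the sum was 65.7 FPKM in M2 and 35.3 in CD4, so that their order turned, with Siglech in M2 going from 13.2 to 49.8. The 7 endothelial markers summed to 36.9 FPKM in M2, of which Pecam1, also known from leukocytes, made up 35.0, and to 6.83 in CD4 and 6.81 in M1, with Vwf at 0 in the used rows of M2 and at 0.154 over all rows. The 6 platelet markers summed to 10.2 FPKM in M2, 177 in CD4 and 100.01 in M1, while the used rows of Gp9, Gp1bb and Treml1 were at 0 in every library. Over all rows Treml1 was at 2.54 FPKM in CD4 and 0.987 in M1, and Gp9 at 0.116 in M2.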

How the data were processed

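RNA of 3 sorted cell subsets was sequenced, 1 library each. The authors trimmed paired reads of 51 bases, aligned them to mm9 with Bowtie 0.12.8 and TopHat 1.4.1, assembled and quantified transcripts with Cufflinks 2.1.0 and Ensembl release 67, and deposited FPKM values in 1 table. FPKM is already corrected for length and library size, and Cufflinks divides fragments between overlapping transcripts by a model, so single transcript rows are less certain than gene sums. How the assemblies were joined is not given in the sources used here.

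Without an identifier were 10182 of 135070 rows, which were left out. Of 92519 identifiers, 90316 were found in the GENCODE M1 annotation of NCBIM37, built on Ensembl release 65. Identifiers with a row holding all 3 values numbered 88278 and gave 36835 genes, 21582 of them above 0. The 9 genes had 55 rows, of which 32 were used, 11 had a value in M2 alone, 5 in M1 alone and 5 in CD4 alone. The column headings alone gave each column its sample.

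Depth is not part of FPKM. Over 1286 coding genes with a single transcript, 2500 to 8000 bases long, the commonest low product of FPKM and length was taken as 1 fragment. The search range was set after the distribution was seen. Estimated fragments use annotated lengths, and counting intervals (exact binomial) and the level of 3 fragments cover counting error only.

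The 9 genes and all gene lists were chosen with earlier results of these data known. Genes named are these 9, the lists and the 5 protein-coding genes nearest to Foxp3. Ccdc22, Ppp1r3f and Gm16008 are named for their overlap and were chosen after their values were seen. No p-value is given. Alternatives were other rows per identifier, other scalings, protein-coding transcripts alone, a pseudocount of 0.1, a log2 ratio of at least 2 and no filter. The calculations were tested on simulated data. Tools were matplotlib 3.10.9, scipy 1.17.1, pandas 2.3.3 and numpy 2.4.6 under Python 3.11.15. Promoter sequences given for another build were not used, and protein assays of the study were not analysed here.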

Additional observations from a re-analysis of the deposited data

Results flagged for a closer look

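Rows that did not enter the gene levels held further signal in the library labelled M2. They summed to 11.9 FPKM for Ctla4, 8.11 for Ikzf2, 6.06 for Il2ra, 4.85 for Gpr83 and 0.574 for Lrrc32. For Ctla4 they were 47.8% of the sum over all rows and for Ikzf2 67.9%. Icos, which had no level by the rule, was at 17.7 FPKM in M2 over its rows. No limit from control samples could be set beside these values, and the difference between used and further rows was not tested.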

How the results depend on the processing

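No paired analysis was possible because every label stands for 1 library. The number of the 9 genes highest in the library labelled M2 was 9 in all 6 alternatives tried for it, and their log2 ratios of M2 to CD4 and M1 were above 0 in all 126 values over the 7 settings that can change them, 1 of which was chosen after seeing the data. Sizes moved. With a pseudocount of 0.1 the median log2 ratios of the 9 genes were 5.11 against CD4 and 5.28 against M1, by construction larger for low values. At a log2 ratio of at least 2, 7 genes were past the fold against CD4 and 8 against M1. Of all genes compared, 6.55% were higher in M2 past this limit against CD4 and 6.42% against M1. All values of a column summed to 2.79e+07 FPKM in M1, 2.51e+07 in M2 and 3.01e+07 in CD4. With FPKM rescaled to a total of 1000000, every level therefore falls, those of the 9 genes to below the pseudocount of 1. None of the 9 genes then reached the filter of 1 FPKM in any library, so none was compared. A difference of 1 on the log2(FPKM + 1) scale also cannot be reached by a level below 1. The count of 0 past the fold in both comparisons was therefore fixed in advance and says nothing about the 9 genes. Of the 4 other regulatory T-cell and pathway lists, 12 genes were higher in M2 than in CD4 past the fold after rescaling, in place of 28. The median level of the 9 genes in M2 went from 6.08 to 0.242. The sum of all rows gave a median level of 11.9 and a median multiple of Foxp3 of 0.362 in place of 0.239. The sum of the rows with all 3 values, chosen after seeing the data, gave 10.2, and a median log2 ratio of 3.22 against CD4. Scaling by the median ratio left 16.1% of all genes higher and 16.1% lower in M2 than in CD4. Values below about 0.02 FPKM rest on a few estimated fragments, and so do some higher values of shorter transcripts. Ctla4 at 0.0538 FPKM in M1 rested on an estimated 5. No alternative replaces a replicate.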
